A study of Mus musculus with 6 samples.

Results

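The 10 genes described here encode the secreted and membrane parts of vascular growth signalling in inguinal white adipose tissue (iWAT): the ligands Vegfa, Vegfb, Vegfc, Angpt1, Angpt2 and Angptl4, and the receptors Kdr, Flt1, Tek and Tie1. They were taken by symbol from the feature table, where each symbol matched 1 row, so they are 10 of the 31053 genes measured. The choice was made with earlier results of these data known. VEGF ligands secreted by stromal cells and adipocytes act on receptor tyrosine kinases of endothelial cells, where KDR (VEGFR2) drives growth and permeability and FLT1 (VEGFR1) binds VEGFA and VEGFB tightly and can act as a decoy. The angiopoietins act on the receptor TIE2, the product of Tek: ANGPT1 is its stabilising agonist, ANGPT2 acts as agonist or antagonist by context, and TIE1 is a partner receptor. ANGPTL4 is related to the angiopoietins by sequence but is best known in adipose tissue as an inhibitor of lipoprotein lipase (LPL), the enzyme that releases fatty acids from circulating triglyceride, and its gene is a known target of PPAR and hypoxia signalling.

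Stromal vascular cells of iWAT were taken from male C57BL/6 mice, young (9 weeks) or aged (57 weeks), all of which had first been acclimated to 30 °C for 3 weeks. Mice of each age then stayed at 30 °C (thermoneutral, TN) or were housed in the cold (6 °C), the 3D cold groups for 3 days and the 14D cold groups for 14 days. Live cells were sorted without the CD45+ immune cells and profiled by droplet single-cell RNA-seq from the 3′ end of transcripts, with 1 library for each age and temperature and 6 libraries in all. The number of mice behind each library is not given in the sources used here. Because each condition is 1 library, the 3 temperatures stood in as replicates of age and the 2 ages as replicates of temperature, p-values measure only the spread between these libraries, and whether the effect of cold differed between the ages could not be tested.

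Each library held 52068837 to 88508349 UMIs (unique molecular identifiers, each a captured transcript molecule), and 57326 of 68103 barcodes passed the filters. Cells were clustered without the 10 genes, the cell type markers and the pathway genes used below, and clusters were named from marker genes: 21762 Dpp4+ fibroblasts, 10495 Icam1+ preadipocytes, 4332 Cd142+ fibroblasts, 4030 endothelial cells and 1370 smooth muscle cells and pericytes (SMC/pericytes). The first 3 are the fibroblastic adipose stem and progenitor cell (ASPC) populations. A further 9521 cells, led by Scg3 and Tfpi2, carried most preadipocyte markers together with a Cd142+ marker among their leading genes and were kept apart as the Scg3+ Tfpi2+ cluster. The aged 14D cold library stood apart: 38.2% of its barcodes held under 2000 UMIs against 7.0% to 11.7% in the other libraries, and 33.8% of its kept cells lay in unnamed clusters against 2.28% to 3.81%, mostly in a cluster with a median of 1454 UMIs. In aged TN, endothelial cells held 8.06% of all UMIs against 3.09% to 3.93% in the other libraries, and Dpp4+ fibroblasts 26.9% against 38.9% to 45.1%. Among the kept cells, 798 had a barcode sequence that also occurred in another library. Levels are raw UMIs of a gene over all UMIs of a class in a library, in units of CPM, and values beside a test are CPM scaled with the TMM factors of that test (normalised CPM).

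In the mm10 build, Vegfa lies at chr17:46016993-46032369 on the minus strand, Vegfb at chr19:6982473-6987651 on the minus strand and Vegfc at chr8:54077606-54187096 on the plus strand. Angpt1 (chr15:42424723-42676977, minus strand) overlaps the antisense gene Gm17473, Angpt2 (chr8:18690263-18741562, minus strand) lies inside Mcph1, which is transcribed from the other strand, and Angptl4 is at chr17:33773750-33781830 on the minus strand. The receptor genes Kdr (chr5:75932827-75978458) and Flt1 (chr5:147561604-147726011) share a chromosome and the minus strand, and Tek (chr4:94739289-94874976, plus strand) and Tie1 (chr4:118471191-118490061, minus strand) share another. Of the 10 genes, 7 had a promoter in the RefSeq table of GRCm38.p6, and Angpt1, Angpt2 and Angptl4 did not. The 250 bases before the start are shown for the 2 ligands that were higher in aged Dpp4+ fibroblasts (Vegfb, and the outermost of the Vegfa starts) and for 2 receptors that differ in the cells that carry them (Kdr and Tek). Capitals mark the core of the hypoxia response element (ACGTG or GCGTG, on either strand) in the ligands and an ETS factor core (CCGGAA or CAGGAA, on either strand) in the receptors.
Vegfb, chr19:6987652-6987901, minus strand: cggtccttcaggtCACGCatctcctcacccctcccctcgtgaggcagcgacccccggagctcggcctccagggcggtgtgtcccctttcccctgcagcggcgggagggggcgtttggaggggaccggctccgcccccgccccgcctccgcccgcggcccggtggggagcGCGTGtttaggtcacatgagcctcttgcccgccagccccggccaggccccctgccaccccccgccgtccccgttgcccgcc
Vegfa, chr17:46032378-46032627, minus strand: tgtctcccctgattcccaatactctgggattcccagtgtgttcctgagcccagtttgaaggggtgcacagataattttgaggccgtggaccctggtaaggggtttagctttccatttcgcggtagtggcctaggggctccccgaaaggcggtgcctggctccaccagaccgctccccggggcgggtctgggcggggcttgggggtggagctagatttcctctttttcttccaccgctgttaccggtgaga
Kdr, chr5:75978456-75978705, minus strand: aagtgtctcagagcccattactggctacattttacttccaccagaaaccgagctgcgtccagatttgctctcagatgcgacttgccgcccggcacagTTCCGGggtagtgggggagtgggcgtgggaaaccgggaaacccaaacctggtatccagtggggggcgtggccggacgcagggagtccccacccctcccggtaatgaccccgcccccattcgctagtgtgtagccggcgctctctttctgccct
Tek, chr4:94739039-94739288, plus strand: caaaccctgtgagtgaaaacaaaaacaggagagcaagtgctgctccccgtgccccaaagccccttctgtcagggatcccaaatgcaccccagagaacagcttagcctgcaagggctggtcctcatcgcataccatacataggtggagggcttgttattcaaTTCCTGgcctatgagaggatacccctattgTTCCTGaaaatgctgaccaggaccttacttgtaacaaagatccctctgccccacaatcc
The Vegfb window holds 2 hypoxia cores, 237 and 81 bases before the start, and no ETS core, while the Vegfa window holds 0 hypoxia cores and 1 ETS core. Kdr has 1 ETS core at 153 bases and 2 hypoxia cores, and Tek has 2 ETS cores, 89 and 59 bases before its start, and no hypoxia core. The table holds a further Vegfa start inside the gene, whose window (chr17:46025164-46025413, not shown) has 2 hypoxia cores, 218 and 211 bases before that start. Of the other windows not shown, Flt1 has 1 hypoxia core, Tie1 has 1 ETS core and Vegfc has neither. These short motifs are common: of 32851 promoter windows of the same length, 38.6% hold a hypoxia core and 35.1% an ETS core, so a match in these genes is a description only.

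Vegfa, the main VEGF ligand of most tissues, was made by all fibroblast classes and least by endothelial cells. In Dpp4+ fibroblasts its level ranged from 155 to 265 CPM over the 6 libraries (median 227), in Cd142+ fibroblasts from 172 to 212, in the Scg3+ Tfpi2+ cluster from 177 to 214 and in Icam1+ preadipocytes from 146 to 158. The ranges of the first 3 overlapped, SMC/pericytes followed at 74.9 to 114 CPM, and endothelial cells at 28.9 to 43.9 CPM lay below every other class in every library. Levels of SMC/pericytes, here and below, include unnamed subclusters led by fibroblast genes (Pi16 and Dpp4 in 241 cells, Col15a1 and Lum in 160 cells). Of these cells 62.7% and 71.2% had high doublet scores. Their median depths were 13763 and 12668 UMIs against 3230 in pericyte-like cells, and their part in these levels was not tested. Vegfb, whose product binds FLT1, was low in every class: its highest median was 27.4 CPM in SMC/pericytes and its lowest 23.4 CPM in endothelial cells, and neighbouring classes in that order overlapped throughout. Vegfc, the ligand of the lymphatic receptor FLT4, was highest where Vegfa was lowest, with 31.9 to 49.5 CPM in endothelial cells, 5.92 to 19.8 CPM in Cd142+ fibroblasts and 2.17 to 5.03 CPM in Dpp4+ fibroblasts.

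Angpt1 and Angpt2, both TIE2 ligands, were highest in different classes. Angpt1 was highest in Cd142+ fibroblasts (42.2 to 66.5 CPM, median 59.4), with overlapping ranges in the Scg3+ Tfpi2+ cluster, Icam1+ preadipocytes and SMC/pericytes, then 15.6 to 32.1 CPM in Dpp4+ fibroblasts and 2.58 to 6.5 CPM in endothelial cells. Angpt2 was highest in SMC/pericytes (39.3 to 62.6 CPM), followed by endothelial cells (8.91 to 22.1 CPM) without overlap and by Cd142+ fibroblasts (0.937 to 9.19 CPM). In the other fibroblast classes Angpt2 stayed at or below 0.852 CPM. Angptl4 was present everywhere, with a median of 542 CPM in endothelial cells, 398 in Icam1+ preadipocytes, 306 in SMC/pericytes, 232 in the Scg3+ Tfpi2+ cluster, 120 in Cd142+ fibroblasts and 90.1 in Dpp4+ fibroblasts. Each step of that order held in 5 or 6 of the 6 libraries, but the ranges of neighbouring classes overlapped.

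Kdr, Flt1 and Tie1 were genes of the endothelial class. Kdr ranged from 828 to 957 CPM in endothelial cells, Flt1 from 1045 to 1292 CPM and Tie1 from 209 to 241 CPM, and in the fibroblast classes their highest levels in any library were 6.15, 7.77 and 1.69 CPM. SMC/pericytes lay between (Kdr 11.0 to 107 CPM, Flt1 28.8 to 154 CPM, Tie1 4.80 to 25.6 CPM). Once cells with a UMI of any of 7 endothelial marker genes were left out, 949 of 1370 SMC/pericytes remained, with 0 to 3.55 CPM of Kdr and 0 to 14.1 CPM of Flt1. 

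Tek did not follow the other receptors: its highest level was in Dpp4+ fibroblasts, not in endothelial cells. In Dpp4+ fibroblasts it was 161, 216 and 184 CPM in young TN, 3D cold and 14D cold and 191, 196 and 191 CPM in the aged libraries in the same order, and in endothelial cells 136, 148 and 150 CPM and then 159, 135 and 144 CPM. The ranges of these classes did not overlap, and both lay above the remaining classes, which reached at most 70.0 CPM. The Dpp4+ level stood at 158 to 209 CPM in the 16444 of 21762 cells that held no endothelial marker UMI, and at 162 to 219 CPM without cells of high doublet score. After each cell was thinned to 2000 UMIs, a Tek UMI was found in 31.1% of Dpp4+ fibroblasts (exact 95% interval for counting error 30.5 to 31.7%) and 25.9% of endothelial cells (24.5 to 27.3%). The share was 6.22% in Icam1+ preadipocytes and 4.01% in Schwann-like cells (2.31 to 6.43%). The immune-like cluster, led by macrophage genes, had 4.86%. The Schwann-like class of 432 cells also had Spp1 and Sfrp5 among its leading genes. At clustering resolution 1.0 the Schwann-like cluster held 170 cells. Another cluster there, of 262 cells with Spp1, Thbs4 and Sfrp5 leading, was named Cd142+ fibroblasts. Without thinning the shares were 70.4%, 42.1% and 8.56% in Dpp4+ fibroblasts, endothelial cells and Schwann-like cells, at median depths of 7564, 3407 and 3848 UMIs. Kdr and Flt1, in contrast, were detected in 73.2% and 81.5% of thinned endothelial cells and in 0.674% and 0.453% of Dpp4+ fibroblasts.

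**Figure D1:**
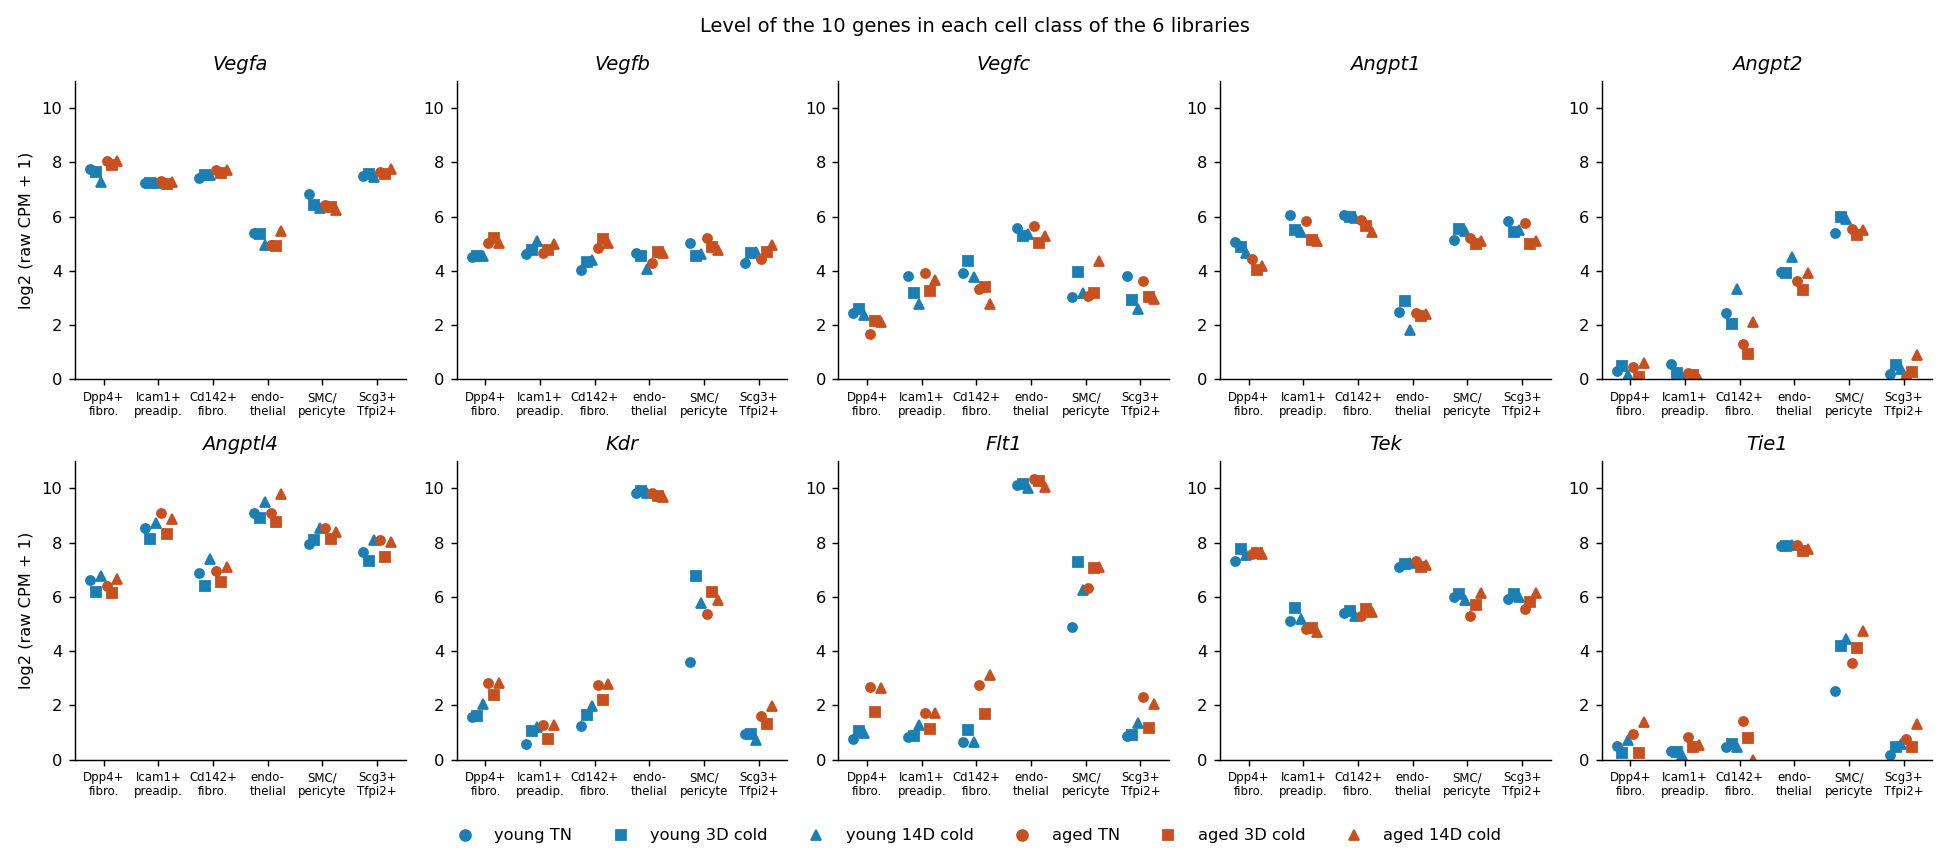
Level of each of the 10 genes, as log2 (CPM + 1) on the y axis, in 6 cell classes; each point is 1 library. Kdr, Flt1 and Tie1 stand highest in endothelial cells, Tek in Dpp4+ fibroblasts (161 to 216 CPM) with endothelial cells next (135 to 159 CPM), and Angpt2 in SMC/pericytes (39.3 to 62.6 CPM).

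Within the vessel wall, subclusters of the endothelial class and of SMC/pericytes divided the ligands and receptors among themselves. Subclusters are described by levels pooled over libraries with an exact 95% counting interval and the range over libraries, since they were built from the same cells. Vegfc was an arterial gene: 245 CPM (225 to 266) in the 562 arterial-like cells, with 190 to 278 CPM over libraries, against 43.0 CPM in venular-like, 9.13 CPM (7.01 to 11.7) in capillary-like and 4.39 CPM in lymphatic-like cells. Angptl4 was highest in the 2147 capillary-like cells at 920 CPM (672 to 1359 over libraries), lower in arterial-like (385 CPM) and venular-like cells (368 CPM), and lowest in lymphatic-like cells (70.3 CPM). A small subcluster with the adipocyte genes Mrap, Pck1 and Adipoq among its leading genes held 652 CPM.

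Among the receptors, Kdr and Flt1 were highest in an unnamed subcluster of 473 cells led by Col13a1 and Esm1, with 1625 CPM (1230 to 1872) and 2081 CPM (1815 to 2185). Kdr was next in capillary-like cells (994 CPM) and fell to 412 CPM in arterial-like and 287 CPM in venular-like cells, whereas Flt1 was higher in arterial-like (1449 CPM, 1301 to 1622 over libraries) than in capillary-like cells (1129 CPM, 934 to 1261), with no overlap. Lymphatic-like cells, 60 in number, held Kdr at 692 CPM and Tie1 at 149 CPM but Flt1 at 4.39 CPM, and there Flt4, the VEGFC receptor gene, reached 305 CPM. Tek was highest in venular-like (206 CPM) and arterial-like cells (197 CPM), whose ranges overlapped, and lowest of the endothelial subclusters in lymphatic-like cells (37.4 CPM).

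The angiopoietins marked the mural side. Angpt2 was at 96.4 CPM (60.7 to 141) in the 492 pericyte-like cells and 51.5 CPM in the 221 smooth muscle-like cells, and Angpt1 at 58.1 CPM and 30.5 CPM. Capillary-like cells had 12.3 CPM of Angpt2 and 0.724 CPM of Angpt1. Within the endothelium, Angpt2 was highest, at 72.2 CPM, in an unnamed subcluster of 70 cells led by Pgf and Apln, where libraries with 5 to 24 cells each ranged from 0 to 140 CPM. Pericyte-like cells held only 10.5 CPM of Kdr, 19.7 of Flt1, 4.65 of Tek and 1.74 of Tie1. Most Kdr, Flt1 and Tie1 UMIs of the SMC/pericyte class (442 of 512, 744 of 901 and 123 of 140) lay in an unnamed subcluster of 147 cells with endothelial genes (Kdr 379 CPM, Flt1 639 CPM). Tek differed here too: that subcluster held 109 of 544 Tek UMIs, while 369 lay in an unnamed subcluster of 241 cells led by genes that include Pi16 and Dpp4, of which 62.7% had high doublet scores.

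**Figure D2:**
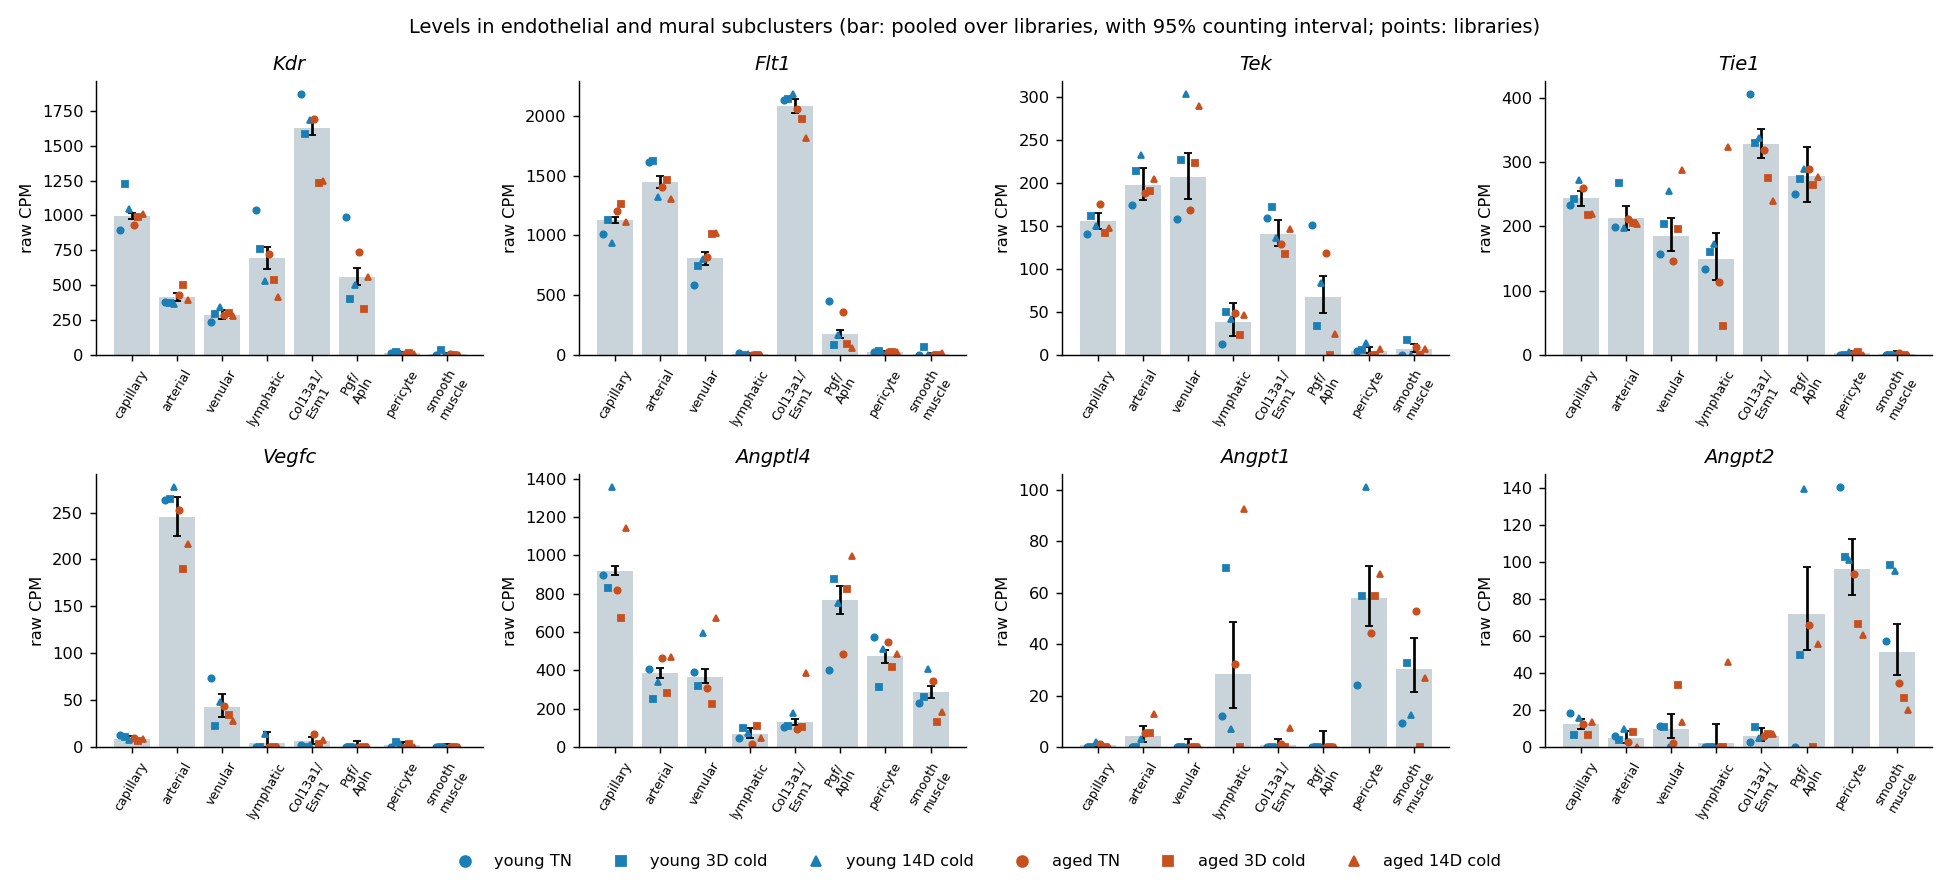
Raw CPM of 8 genes in 8 subclusters of endothelial cells and SMC/pericytes; bars are levels pooled over libraries with the 95% counting interval, and points are single libraries. Vegfc stands out in arterial-like cells (245 CPM), Angptl4 in capillary-like cells (920 CPM) and Angpt2 in pericyte-like cells (96.4 CPM).

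A level per UMI does not say which class supplies most of a ligand's transcripts among the cells captured, since the classes differ in size. Mature adipocytes are not part of the stromal vascular cells profiled, and CD45+ immune cells were sorted out. The shares below therefore do not cover the whole tissue. Dpp4+ fibroblasts held the largest share of Vegfa UMIs in kept cells, 38.6% to 53.8% over the 6 libraries, and of Vegfb UMIs, 33.0% to 45.7%. Icam1+ preadipocytes held 32.6% to 47.6% of Angptl4 UMIs although endothelial cells had the higher level, and endothelial cells held 9.06% to 14.1%. SMC/pericytes held the largest share of Angpt2 UMIs in every library (31.7% to 57.2%), and endothelial cells held 16.2% to 28.9%. Both were lowest in aged 14D cold, where the unnamed clusters held 31.0%, and Cd142+ fibroblasts held 23.1% in young 14D cold. For Vegfc no class dominated, with 16.2% to 29.7% in Icam1+ preadipocytes and 13.6% to 31.2% in endothelial cells.

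Aged and young libraries did not overlap in 9 of the 54 shares compared, 4 of which lay in the ASPC populations. The Dpp4+ share of Vegfc was 23.7% ± 3.97 (SD, n = 3) in young and 13.1% ± 7.44 in aged libraries, that of Angpt1 31.8% ± 0.865 and 22.3% ± 7.64, and that of Angptl4 20.6% ± 2.02 and 13.4% ± 5.41. The Cd142+ share of Angpt2 was 15.7% ± 6.61 in young and 4.84% ± 1.64 in aged libraries. Each of the 9 gave p = 0.1 in a two-sided exact permutation test, the smallest that 3 libraries against 3 allow, so no share could pass a threshold of 0.05. Without any age effect, a share would separate in this way with a probability of 0.1. The 54 shares are also not independent, since those of 1 gene come from the same libraries. These shares move with class size, and the Dpp4+ class was smallest in aged TN, at 24.9% of kept cells against up to 46.4%.

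In aged Dpp4+ fibroblasts the ligand genes moved in both directions. Vegfa was 216, 194 and 161 normalised CPM in young TN, 3D cold and 14D cold and 264, 238 and 259 in the aged libraries in the same order, so every aged library lay above every young one. It rose by 0.42 ± 0.08 (log2, SE) from 190 ± 27.4 (SD, n = 3) to 254 ± 14.1 normalised CPM, with an adjusted p of 0.00674 (edgeR, quasi-likelihood F test, adjusted for temperature). Vegfb was 22.2, 22.2 and 23.2 normalised CPM at the 3 temperatures in young and 31.9, 36.0 and 31.4 in aged mice. It rose by 0.56 ± 0.07 (adjusted p = 0.000597), again with no overlap between the ages.

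Angpt1 went down in the same cells. Its values were 32.4, 28.0 and 25.3 normalised CPM in young and 20.5, 15.4 and 16.8 in aged libraries, a log2 change of −0.71 ± 0.07 (adjusted p = 0.000207). Vegfc, already low in this class, was 4.54, 4.93 and 4.31 normalised CPM in young and 2.17, 3.37 and 3.30 in aged libraries (−0.63 ± 0.15, adjusted p = 0.0211). The ages did not overlap for either gene. Angptl4 and Angpt2 did not pass the test (−0.15, adjusted p = 0.143, and 0.25, adjusted p = 0.849), nor did Tek, at 162 to 212 normalised CPM in young and 188 to 195 in aged libraries (0.03, adjusted p = 0.845).

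Of the 10 genes, 6 passed the age test in Dpp4+ fibroblasts, against 17.4% of the 13011 genes tested there, 4 of them higher in aged (8.92% of all genes) and 2 lower (8.47%). The 4 higher include Kdr and Flt1, at no more than 6.14 normalised CPM in any library, which are described below together with endothelial markers. The same 6 had libraries that did not overlap between the ages, as had 24.6% of all genes. The median log2 change of the 10 genes was 0.34 and that of all genes 0.00. The former includes Kdr, Flt1 and Tie1 (1.15, 2.16 and 1.01), all low in this class. The class is made up mainly of clusters 0 and 3, and in aged TN cluster 3 held 426 of 2283 cells. Within cluster 0 alone and cluster 3 alone the log2 changes were 0.30 and 0.57 for Vegfa, 0.48 and 0.69 for Vegfb, and −0.39 and −0.73 for Angpt1, and all 6 values passed the test. Vegfb and Angpt1 passed in all 18 alternatives run. Vegfa lost the call only with no temperature term (adjusted p = 0.0641), and Vegfc in 8 of 18, including without young TN, young 3D cold, aged TN or aged 3D cold (adjusted p = 0.106, 0.0847, 0.0969 and 0.0797).

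In Cd142+ fibroblasts 3 of these ligands passed in the same direction. Vegfb was 15.5, 18.9 and 20.3 normalised CPM in young and 27.6, 36.1 and 32.1 in aged libraries, a rise of 0.82 ± 0.11 (adjusted p = 0.000448) that passed in all 16 alternatives. Vegfc was 14.3, 19.4 and 12.9 in young and 8.94, 9.73 and 5.98 in aged libraries (−0.91 ± 0.17, adjusted p = 0.00325). Angpt1 went from 66.9, 61.6 and 61.8 to 57.1, 50.6 and 42.6 normalised CPM (−0.33 ± 0.09, adjusted p = 0.0331). In all 3 genes the ages did not overlap. Angpt2, a low gene here, was 4.46, 3.02 and 9.23 normalised CPM in young and 1.45, 0.954 and 3.36 in aged libraries. Those ranges overlapped between young 3D cold and aged 14D cold, and the log2 change was −1.55 ± 0.32 (adjusted p = 0.00755).

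Of the 9 genes tested in Cd142+ fibroblasts (Tie1 was too low), 6 passed for age against 11.9% of all genes, 3 higher in aged (6.13% of all genes) and 3 lower (5.8%). The 3 higher include Kdr and Flt1, on 95 and 70 UMIs and described below with endothelial markers. Kdr lost its call in 8 of 15 alternatives. The ages did not overlap for 6, against 23.7% of all genes, with Vegfa (not called) in place of Angpt2. Their median log2 change was 0.05. Vegfc lost the call without young 3D cold or aged 3D cold (adjusted p = 0.0645 and 0.0547), at resolution 0.3, where the change was −0.35 (adjusted p = 0.0852), and after thinning to 2000 UMIs (−0.62, adjusted p = 0.218). Angpt1 lost it after thinning (adjusted p = 0.0796), with no temperature term (0.147) and without any library but aged TN (adjusted p = 0.0602 to 0.144). DESeq2 called neither, nor Angpt2 (adjusted p = 0.104, 0.402 and 0.148). The markers that name the class moved with age as well: 4 of 10 Cd142+ markers were lower in aged and none higher, with sums of 3740 to 4502 CPM in young and 3024 to 3518 CPM in aged libraries, and 5 of 10 Icam1+ markers were lower and 2 higher. Their part in the ligand changes was not tested.

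In Icam1+ preadipocytes, Vegfa was 149, 149 and 148 normalised CPM in young and 154, 151 and 157 in aged libraries (0.05, adjusted p = 0.711), and Vegfb differed by 0.01. Angptl4 was 369, 277 and 420 normalised CPM in young and 529, 329 and 471 in aged libraries, higher in aged at each temperature though the ranges overlapped (0.31 ± 0.08, adjusted p = 0.0463). Angpt1 was lower in aged at each temperature (−0.30 ± 0.07, adjusted p = 0.0255), from 66.1, 44.2 and 41.2 to 54.3, 35.1 and 33.8 normalised CPM. Tek, at 33.8, 47.3 and 35.2 in young and 26.8, 29.1 and 25.8 in aged libraries, was lower with no overlap (−0.50 ± 0.09, adjusted p = 0.00785). Its median raw level in this class was 31.0 CPM, against 191 CPM in Dpp4+ fibroblasts. The share of thinned cells with a Tek UMI, given above, lay near those of immune-like and Schwann-like cells. 

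Thus 3 of the 8 genes tested in Icam1+ preadipocytes passed, against 10.6% of all genes: 1 higher (6.01%) and 2 lower (4.61%). The ages did not overlap for Tek and Vegfa, 2 of 8 against 21.1% of all genes. The calls of Angpt1 and Angptl4 were each lost without young TN, young 3D cold, aged TN or aged 3D cold (adjusted p = 0.0645, 0.212, 0.0664 and 0.219 for Angpt1, and 0.158, 0.216, 0.15 and 0.213 for Angptl4). Both calls were also lost with DESeq2 (adjusted p = 0.22 for Angpt1 and 0.058 for Angptl4) and with no temperature term (0.576 and 0.484). Thinning to 2000 UMIs lost that of Angpt1 (0.107), and adding the Scg3+ Tfpi2+ cluster that of Angptl4 (0.0736). Tek lost its call without young 3D cold or aged 3D cold (adjusted p = 0.114 for each), with no temperature term (adjusted p = 0.107) and with cells thinned to 2000 UMIs (adjusted p = 0.065). In the Scg3+ Tfpi2+ cluster no ligand passed, and Angpt1 was nearest (−0.29, adjusted p = 0.0751).

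The age effect itself was compared between the 3 ASPC populations, in 1 model per pair with the library as a block. For Vegfb the effect in Icam1+ preadipocytes was lower than in Dpp4+ fibroblasts (log2 difference −0.54 ± 0.08, adjusted p = 0.00769) and than in Cd142+ fibroblasts (difference of Cd142+ minus Icam1+ 0.81 ± 0.13, adjusted p = 0.00147). For Vegfc the effect in Icam1+ preadipocytes, where aged libraries were not called (0.34, adjusted p = 0.263), was higher than in Dpp4+ fibroblasts by 1.05 ± 0.19 (adjusted p = 0.0139) and the Cd142+ minus Icam1+ difference was −1.21 ± 0.23 (adjusted p = 0.00627). Tek differed in the same pairs, by −0.52 ± 0.08 for Icam1+ minus Dpp4+ (adjusted p = 0.00728) and 0.57 ± 0.13 for Cd142+ minus Icam1+ (adjusted p = 0.0144). For Angpt1 the fall in Dpp4+ fibroblasts was larger than in Icam1+ preadipocytes (difference 0.42 ± 0.09, adjusted p = 0.0264) and in Cd142+ fibroblasts (0.40 ± 0.11, adjusted p = 0.0332). Angptl4 differed between Icam1+ preadipocytes and Dpp4+ fibroblasts (0.47 ± 0.10, adjusted p = 0.0361), and for Vegfa the same difference missed the threshold (−0.36 ± 0.09, adjusted p = 0.0559).

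These 9 differences passed against 5.11%, 3.8% and 4.89% of all genes for Icam1+ minus Dpp4+, Cd142+ minus Dpp4+ and Cd142+ minus Icam1+. The Angpt1 difference for Icam1+ minus Dpp4+ was lost without young 3D cold or aged 3D cold (adjusted p = 0.196 and 0.212), and so was the Tek difference for Cd142+ minus Icam1+ (adjusted p = 0.189 and 0.2). The Angpt1 difference for Cd142+ minus Dpp4+ was lost without young TN, young 3D cold, aged TN or aged 3D cold (adjusted p = 0.177, 0.38, 0.0962 and 0.466).

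**Figure D3:**
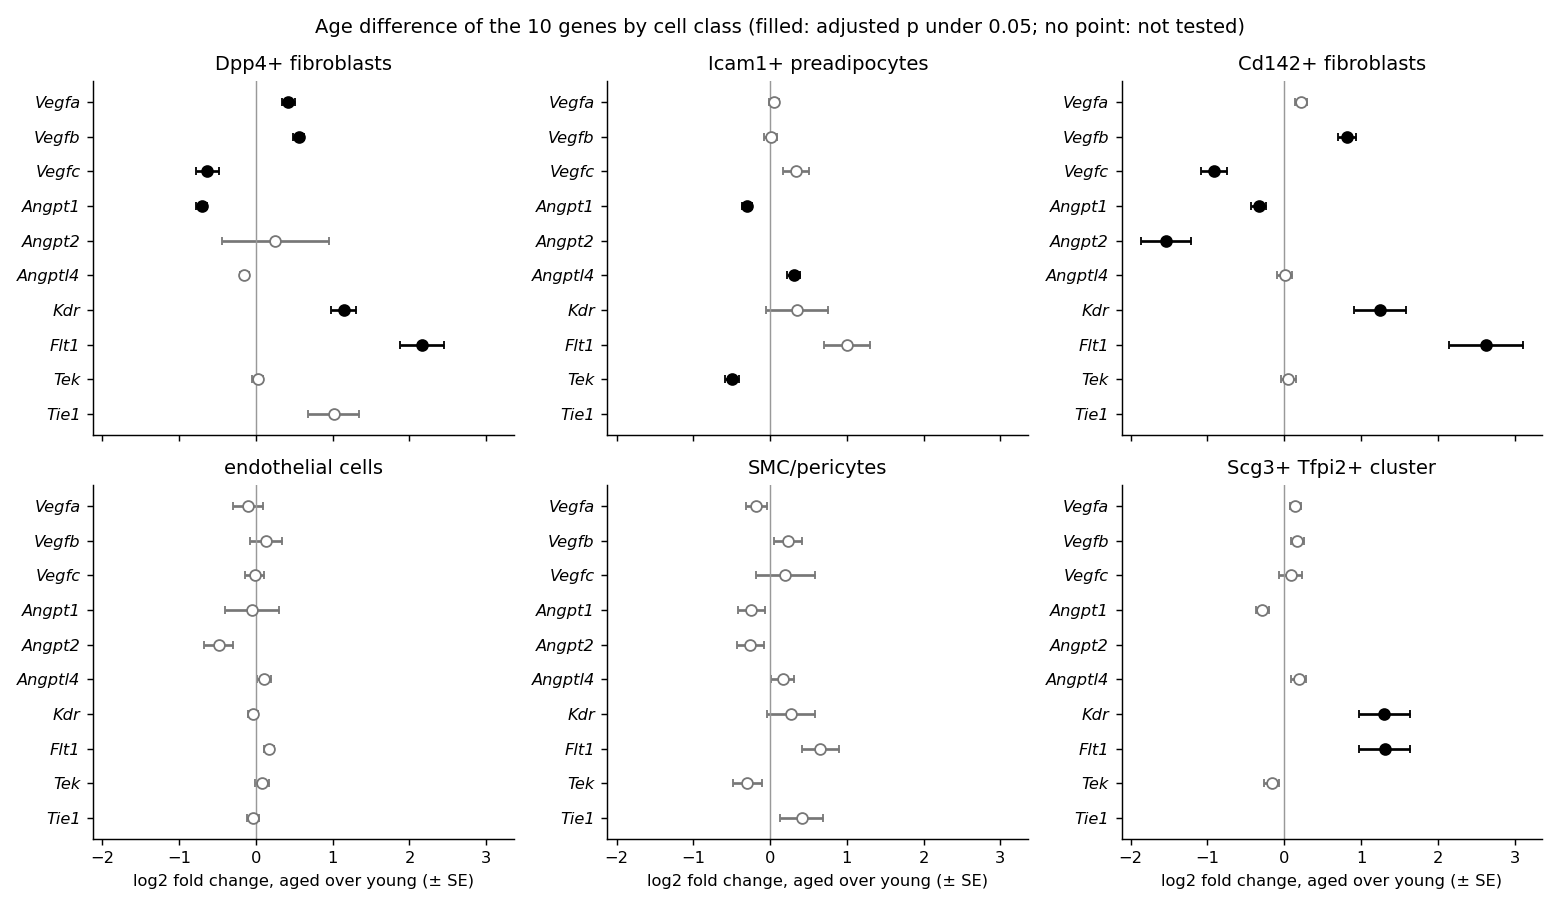
Log2 change of aged against young with its standard error for the 10 genes in 6 classes, 1 panel per class; filled points have an adjusted p under 0.05 and genes without a point were not tested. In Dpp4+ fibroblasts Vegfa and Vegfb lie above 0 and Angpt1 below, and in endothelial cells no point is filled.

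UMIs of Kdr and Flt1 in fibroblasts were few and more frequent in aged libraries. In Dpp4+ fibroblasts Kdr was 2.03, 2.02 and 3.28 normalised CPM in young and 6.14, 4.15 and 5.97 in aged libraries (1.15 ± 0.16, adjusted p = 0.00131), and Flt1 was 0.724, 1.04 and 1.03 against 5.47, 2.34 and 5.21 (2.16 ± 0.28, adjusted p = 0.000805), with no overlap for either. These rest on 593 UMIs of Kdr and 359 of Flt1 over 21762 cells. In Cd142+ fibroblasts, with 95 and 70 UMIs, Kdr changed by 1.25 (adjusted p = 0.0287) and Flt1 by 2.63 ± 0.48 (adjusted p = 0.00306). In the Scg3+ Tfpi2+ cluster both were called at 1.30 ± 0.33 and 1.31 ± 0.33 (adjusted p = 0.044 each), 2 of the 8 genes tested there, against 9.2% of all genes (5.23% higher in aged). The ages did not overlap for Kdr there, nor for Vegfa, which was not called, against 21.3% of all genes, and they overlapped for Flt1.

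Markers of endothelial cells moved with these values. In Dpp4+ fibroblasts 6 of 9 tested endothelial markers passed as higher in aged (the other of 10 was too low to test), Cldn5 by 1.51 and Egfl7 by 1.08 among them, although the summed list, which includes genes that fibroblasts express too, was 433 to 484 CPM in young and 427 to 458 in aged libraries. In Cd142+ fibroblasts 2 of 8 were higher (Cldn5 by 2.52) and 1 lower, with sums of 257 to 327 and 251 to 327 CPM. Leaving out cells with an endothelial marker UMI brought Dpp4+ fibroblasts in aged TN from 6.15 to 2.86 CPM of Kdr and from 5.49 to 1.39 CPM of Flt1, and the log2 changes of the class to 0.63 (adjusted p = 0.0252) and 1.04 (adjusted p = 0.049), still past the threshold. Leaving out cells with high doublet scores instead left aged TN at 3.56 CPM of Kdr and 2.24 CPM of Flt1. In Cd142+ fibroblasts the Kdr call was lost under both (0.55, adjusted p = 0.443, and 0.69, adjusted p = 0.261), and also without young TN, young 3D cold, aged TN or aged 3D cold (adjusted p = 0.2, 0.0595, 0.217 and 0.0633). Flt1 there fell in aged TN from 5.81 to 0.523 CPM without cells holding endothelial marker UMIs. Young libraries then held 0.405 to 0.701 CPM, aged 3D cold 1.00 and aged 14D cold 4.15, on 26 UMIs in all. Without high doublet scores aged TN held 0.81 CPM of Flt1, against up to 1.13 in young libraries. Aged 3D cold then held 1.50 CPM and aged 14D cold 7.49, on 37 UMIs in all. The Scg3+ Tfpi2+ cluster lost the Kdr call without either 3D cold or either 14D cold library (adjusted p = 0.0596 to 0.228) and the Flt1 call without either TN or either 14D cold library (adjusted p = 0.133 to 0.153). Without cells of high doublet score it lost both, at 0.70 for Kdr (adjusted p = 0.441) and 1.16 for Flt1 (adjusted p = 0.0505), and without cells holding endothelial marker UMIs Flt1 fell to 0.71 (adjusted p = 0.204) and Kdr was too low to test. The part of endothelial RNA in the remaining difference was not tested.

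**Figure D4:**
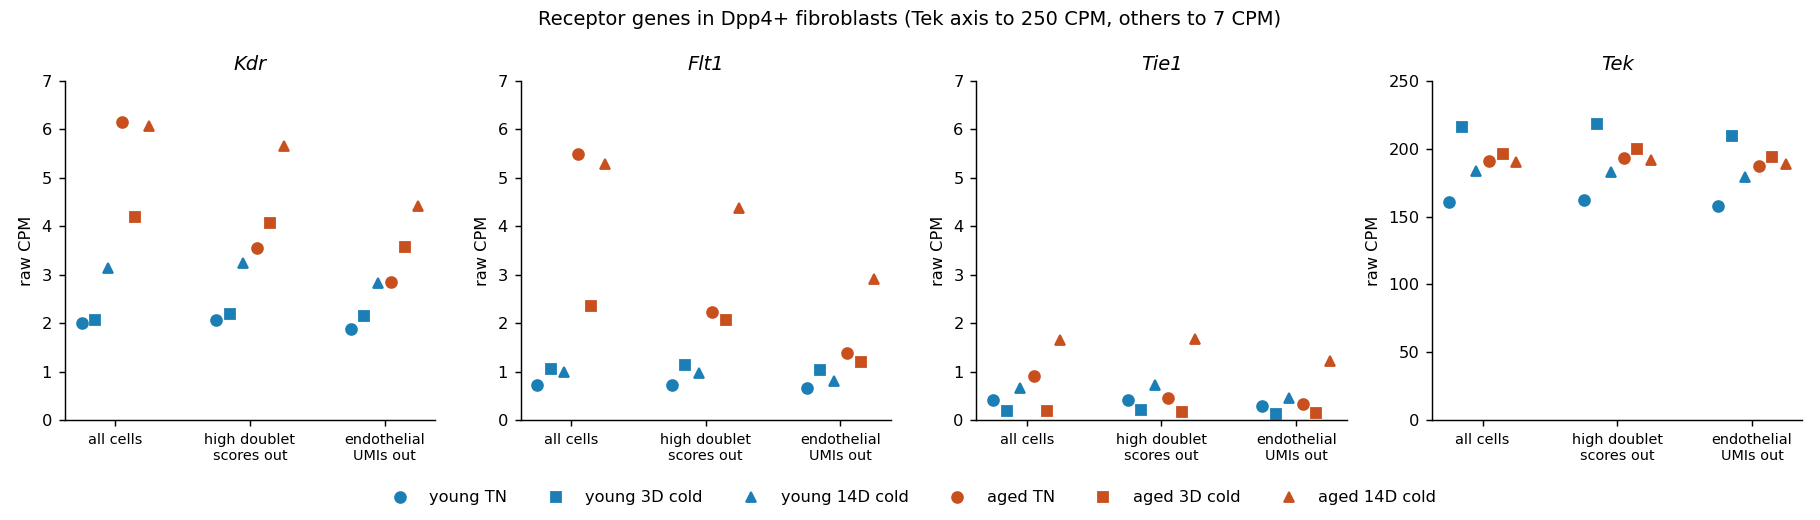
Raw CPM of Kdr, Flt1, Tie1 and Tek in Dpp4+ fibroblasts of the 6 libraries with all cells, without cells of high doublet score and without cells holding an endothelial marker UMI. Kdr and Flt1 in aged TN drop from 6.15 and 5.49 CPM to 2.86 and 1.39 CPM, while Tek stays between 158 and 219 CPM in all libraries and settings.

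In endothelial cells, none of the 10 genes passed the age test, against 2.58% of all genes (0.707% higher and 1.87% lower in aged), and none had ages that did not overlap, against 19.4%. At an unadjusted p under 0.05 there were 2 of the 10, and DESeq2 called 0. Kdr was 882, 949 and 900 normalised CPM in young and 914, 893 and 855 in aged libraries (−0.04 ± 0.07, adjusted p = 0.849), and Tek was 133, 147 and 148 against 159, 142 and 149 (0.08). Flt1 was 1099, 1135 and 1033 in young and 1295, 1299 and 1093 in aged libraries (0.17 ± 0.07, adjusted p = 0.241). Tie1 lay between 218 and 239 normalised CPM in all 6 libraries. Angpt2, at 14.1, 14.1 and 21.8 in young and 11.3, 9.32 and 14.5 in aged libraries, was lower in aged at each temperature without passing (−0.49 ± 0.19, adjusted p = 0.242).

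The test in endothelial cells rested on 447 to 1359 cells per library and on 2520 UMIs of Tek and 3946 of Tie1 in all. In SMC/pericytes none of 10 passed, against 0.187% of all genes (0.0728% higher and 0.114% lower in aged), and none had ages without overlap, against 14.8%; 1 had an unadjusted p under 0.05 and DESeq2 called 0. There the largest difference was 0.65 for Flt1 (adjusted p = 0.363), while the summed endothelial markers of that class ranged from 560 to 1221 CPM in young and 765 to 1073 CPM in aged libraries.

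With cold, Angptl4 was the gene that moved in most classes, and its course was not in 1 direction. In Dpp4+ fibroblasts it was 98.5, 70.4 and 113 normalised CPM in young TN, 3D cold and 14D cold and 82.5, 69.9 and 99.3 in aged, lowest at 3D cold and highest at 14D cold at both ages. Against TN this was −0.36 at 3D cold and 0.22 at 14D cold on the log2 scale (adjusted p = 0.00913, F test over both times with age as a term). Cd142+ fibroblasts had 117, 82.4 and 167 in young and 124, 94.1 and 139 in aged (−0.45 and 0.36, adjusted p = 0.00656). In the Scg3+ Tfpi2+ cluster the values were 202, 157 and 274 and then 271, 181 and 261 (−0.48 and 0.20, adjusted p = 0.0438), with aged TN slightly above aged 14D cold.

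Icam1+ preadipocytes, which held the largest share of Angptl4 UMIs, had the drop at 3D cold (−0.55) but no clear level above TN at 14D cold (0.01), with an adjusted p of 0.0234 for both times together. At 14D cold young libraries lay above TN (420 against 369 normalised CPM) and aged ones below it (471 against 529). Endothelial cells had 531, 471 and 708 in young and 541, 449 and 909 in aged (−0.22 and 0.58, adjusted p = 0.0416), so both 14D cold libraries lay above all others. Capillary-like cells alone gave 0.55 at 14D cold (adjusted p = 0.00029), the Col13a1 and Esm1 subcluster 1.43 (adjusted p = 0.0042) and arterial-like cells −0.12 (adjusted p = 0.155). SMC/pericytes did not pass (261, 266 and 373, then 378, 283 and 335, adjusted p = 0.768).

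**Figure D5:**
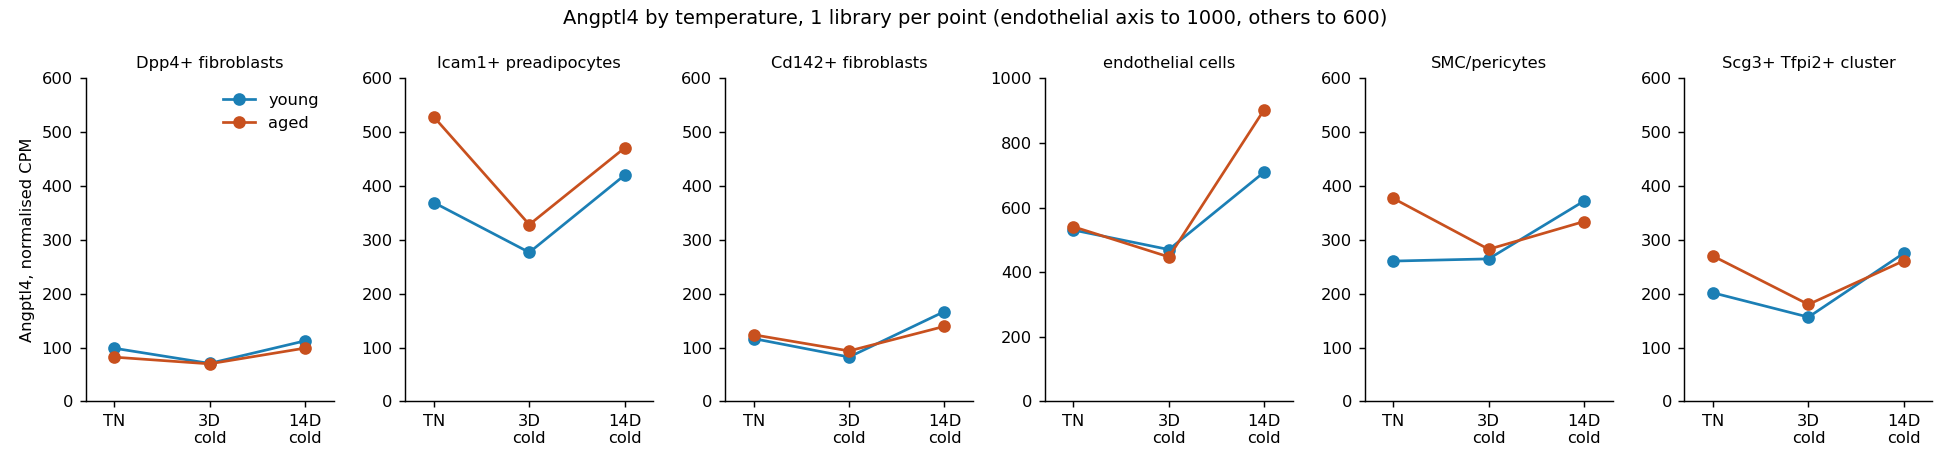
Normalised CPM of Angptl4 at TN, 3D cold and 14D cold in 6 classes, with 1 line per age; each point is 1 library, and the y axis of endothelial cells has its own range. In all classes but SMC/pericytes the 3D cold libraries of both ages lie below TN, and in endothelial cells the 14D cold libraries (708 and 909) lie above all others.

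Angpt1 was lower in the cold in Icam1+ preadipocytes, by −0.61 at 3D cold and −0.68 at 14D cold (adjusted p = 0.00499), where TN libraries held 66.1 and 54.3 normalised CPM and cold libraries 33.8 to 44.2. In the Scg3+ Tfpi2+ cluster it went from 56.2 in young TN to 41.6 and 44.4 and from 53.2 in aged TN to 31.5 and 33.4 (−0.59 and −0.49, adjusted p = 0.0357). In both classes the TN libraries lay above all cold ones. Dpp4+ fibroblasts had changes of −0.30 and −0.33 that did not pass (adjusted p = 0.0847). Vegfc was also highest at TN in the Scg3+ Tfpi2+ cluster, with 13.0, 6.6 and 5.01 in young and 11.4, 7.27 and 6.8 in aged (−0.82 and −1.08, adjusted p = 0.0334), and Icam1+ preadipocytes had −0.66 and −0.70 (adjusted p = 0.118). Vegfa passed in none of the classes, and Tie1 passed in Dpp4+ fibroblasts (−1.73 and 0.79, adjusted p = 0.0313) on levels of at most 1.62 normalised CPM.

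In all, 2 of 10 genes passed the temperature test in Dpp4+ fibroblasts, against 5.29% of all genes, 2 of 8 in Icam1+ preadipocytes (4.11%), 1 of 9 in Cd142+ fibroblasts (2.43%), 1 of 10 in endothelial cells (0.434%), 0 of 10 in SMC/pericytes (0.1%; 3 at an unadjusted p under 0.05 and 0 by DESeq2) and 3 of 9 in the Scg3+ Tfpi2+ cluster (2.6%). The Angptl4 call was lost without young 3D cold in Dpp4+ fibroblasts (adjusted p = 0.0899) and Cd142+ fibroblasts (0.112), without young or aged 3D cold in Icam1+ preadipocytes (0.178 and 0.343), and in endothelial cells without young 14D cold, aged TN, aged 3D cold or aged 14D cold (0.0558, 0.0676, 0.0938 and 0.263). In the Scg3+ Tfpi2+ cluster the calls of Angptl4, Angpt1 and Vegfc were each lost without young 3D cold, young 14D cold or aged 3D cold (adjusted p = 0.0558 to 0.29), and Angpt1 also without aged TN (0.0505). The Tie1 call was lost without any library but young 14D cold (adjusted p = 0.061 to 0.222), and without cells holding endothelial marker UMIs (0.0626).

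In SMC/pericytes Kdr and Flt1 lay higher in the cold at both ages without passing. Kdr was 11.5, 104 and 54.1 normalised CPM in young TN, 3D cold and 14D cold and 41.1, 73.3 and 58.2 in aged (1.78 at 3D cold and 1.10 at 14D cold, adjusted p = 0.205). Flt1 was 30.1, 149 and 74.8 in young and 80.8, 135 and 136 in aged (0.95 at 14D cold, adjusted p = 0.176). Each passed in 8 of 15 alternatives, among them leaving out any 1 library other than young TN, and the smallest adjusted p of each (5.87e-14 and 2.53e-10) came from keeping all genes whatever their counts. Without young TN neither passed. The summed endothelial markers of the class took the same course, with 560, 1221 and 1100 CPM in young and 765, 1073 and 1027 CPM in aged libraries, and the subcluster with endothelial genes held 9 cells in young TN and 24 to 31 in each other library. Their part in the receptor values was not tested.

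Other genes of the pathway were read from lists chosen with earlier results of these data known. Each list's counts stand against all genes tested, of which the age test called 8.92% higher and 8.47% lower in Dpp4+ fibroblasts, 6.01% and 4.61% in Icam1+ preadipocytes, 6.13% and 5.8% in Cd142+ fibroblasts, 5.23% and 3.97% in the Scg3+ Tfpi2+ cluster and 0.707% and 1.87% in endothelial cells. Of 5 other VEGF genes, Nrp2, a co-receptor of VEGFC and semaphorins, was higher in aged cells of all 4 fibroblast classes, by 1.31 in Dpp4+ fibroblasts, 1.13 in Icam1+ preadipocytes, 1.29 in Cd142+ fibroblasts and 1.08 in the Scg3+ Tfpi2+ cluster. In Dpp4+ fibroblasts it went from 5.32 ± 1.33 to 13.3 ± 4.45 normalised CPM (SD, n = 3, adjusted p = 2.5e-05). Pgf, which encodes placental growth factor, a further FLT1 ligand, was lower in aged Dpp4+ fibroblasts (−0.90, adjusted p = 0.00018) and in the Scg3+ Tfpi2+ cluster (−1.38, adjusted p = 0.00544). In Icam1+ preadipocytes Vegfd was lower in aged (−0.39, adjusted p = 0.0298), whereas Nrp1 rose by 0.26 (adjusted p = 0.0445). In sum, 1 gene rose and 1 fell of 4 tested in Dpp4+ fibroblasts, 2 rose and 1 fell of 3 in Icam1+ preadipocytes, 1 rose of 4 in Cd142+ fibroblasts, and none passed of 5 in endothelial cells. The list medians were 0.12, 0.26, 0.04 and 0.05 against 0.00 over all genes in each class.

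Among 9 other angiopoietin and angiopoietin-like genes, more fell than rose with age. Angptl1, a secreted relative of the angiopoietins, was lower in all 4 fibroblast classes (−1.09 in Dpp4+, −0.53 in Icam1+, −0.43 in Cd142+, −0.54 in the Scg3+ Tfpi2+ cluster). Angpt4, a TIE2 ligand, was lower in Icam1+ preadipocytes (−1.34) and Cd142+ fibroblasts (−1.27), and Svep1 in Cd142+ fibroblasts (−0.43). Of the tested genes, 1 rose and 1 fell of 7 in Dpp4+ fibroblasts, 2 fell of 7 in Icam1+ preadipocytes, 3 fell of 5 in Cd142+ fibroblasts and 1 fell of 3 in endothelial cells (Angptl2, −1.05, adjusted p = 0.0333), with medians of −0.12, −0.23, −0.43 and −0.86. The gene that rose in Dpp4+ fibroblasts was Ptprb (1.88), an endothelial phosphatase that acts on TIE2, at 0.798 ± 0.39 against 3.1 ± 1.69 normalised CPM, a level like that of Kdr and Flt1 there.

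In the cold Angptl2 and Angpt4 had larger changes at 3D cold than at 14D cold. Genes named here were taken from those past the threshold, up to 4 per list, class and test. The temperature test called 5.29% of all genes in Dpp4+ fibroblasts, 4.11% in Icam1+ preadipocytes, 2.43% in Cd142+ fibroblasts and 2.6% in the Scg3+ Tfpi2+ cluster. Angptl2 was higher at 3D cold in all 4 fibroblast classes, by 0.48 in Dpp4+, 0.67 in Icam1+, 0.73 in Cd142+ and 0.75 in the Scg3+ Tfpi2+ cluster, and Angpt4 lower, by −1.85, −2.34, −2.71 and −2.88. At 14D cold the Angptl2 values were 0.16, 0.33, 0.26 and 0.29 and those of Angpt4 −0.58, 0.12, −1.18 and −0.44. Except in Cd142+ fibroblasts, Angpt4 was below 4 normalised CPM in all libraries. Svep1 fell in Icam1+ preadipocytes (−0.46 and −0.58) and the Scg3+ Tfpi2+ cluster (−0.51 and −0.50). Nrp2 went up in Icam1+ preadipocytes (0.99 and 0.70, adjusted p = 0.0192) and down in Dpp4+ fibroblasts (−0.68 and −0.70, adjusted p = 0.0124). The difference between these classes was not tested.

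Of 15 genes of the hypoxia pathway, of which Vegfa and Angptl4 are known targets, 3 rose and 3 fell of 15 tested in aged Dpp4+ fibroblasts, with a median change of −0.10, against 17.4% of all genes called there. Ndrg1, a hypoxia-induced gene, rose in all 4 fibroblast classes (1.26 in Dpp4+, 1.03 in Icam1+, 1.06 in Cd142+ and 1.35 in the Scg3+ Tfpi2+ cluster), as did Epas1, which encodes HIF-2α (0.83, 0.58, 0.89 and 0.69). Adm, the gene of the vasodilator adrenomedullin, fell by 1.06 on the log2 scale in Dpp4+ fibroblasts, from 228 ± 37.7 to 111 ± 29.8 normalised CPM, and by 0.40 in Cd142+ fibroblasts. In Cd142+ fibroblasts 3 rose and 1 fell of 13, in Icam1+ preadipocytes and in the Scg3+ Tfpi2+ cluster 2 rose of 13 each, and in endothelial cells only Epas1 passed of 13 (0.33, adjusted p = 0.0436). All genes were called at 11.9%, 10.6%, 9.2% and 2.58% in these classes. With cold, Adm fell in Icam1+ preadipocytes (−0.54 at 3D cold and −1.25 at 14D cold) and in the Scg3+ Tfpi2+ cluster (−0.57 and −0.81).

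Of 14 genes known to answer VEGF or to mark sprouting endothelium, endothelial cells had none past the test: 0 of 14 passed for age and 0 of 14 for temperature, with medians of −0.06 and −0.01, against 2.58% and 0.434% of all genes. The summed list nevertheless did not overlap between the ages, at 3407 to 3579 CPM in young and 2741 to 3353 CPM in aged endothelial cells. Of all single genes tested there, 19.4% did not overlap either. The subcluster led by Col13a1 and the list gene Esm1 also varied in size. It held 13.5%, 13.4% and 13.9% of endothelial cells in young TN, 3D cold and 14D cold and 13.0%, 8.75% and 5.85% in aged. Its part in the sum was not tested. In fibroblasts, where most of them have other roles, Nr4a1, an immediate early gene, was higher in aged cells of all 4 classes (0.51 to 0.69), and Plvap, a gene of capillary fenestrae, was lower in Icam1+ preadipocytes (−0.67), Cd142+ fibroblasts (−1.35) and the Scg3+ Tfpi2+ cluster (−0.80). Immediate early genes also answer to tissue dissociation. Of 10 genes of that response, aged Dpp4+ fibroblasts had 2 up and 1 down, against 17.4% of all genes called.

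Of 11 genes around lipoprotein lipase and PPAR, which bear on the role of Angptl4, 5 rose and 1 fell with age in Dpp4+ fibroblasts (median 0.35), 4 rose in Icam1+ preadipocytes (0.10), 3 rose and 1 fell in Cd142+ fibroblasts (0.25) and 3 of 10 rose in endothelial cells (0.31). The shares of all genes called as higher were 8.92%, 6.01%, 6.13% and 0.707% in these classes. Lpl itself, the enzyme that ANGPTL4 inhibits, fell by 0.83 on the log2 scale in Dpp4+ fibroblasts (441 ± 40.6 to 251 ± 54.8 normalised CPM, adjusted p = 0.000161) and by 0.86 in Cd142+ fibroblasts. Plin2, a lipid droplet protein gene and PPAR target, rose in all 4 fibroblast classes (0.44 to 0.63) and in endothelial cells (0.50). Endothelial cells had Pdk4 higher in aged by 1.06 (adjusted p = 0.0273) and Fabp4 by 0.47. Transcripts of adipocytes moved with age as well: in Dpp4+ fibroblasts 5 of 5 tested adipocyte genes were higher, with sums of 6.43 to 17.5 CPM in young and 16.2 to 28.7 CPM in aged libraries, and in endothelial cells 2 of 6, with sums of 403 to 1092 and 910 to 2218 CPM. Their part in the PPAR list was not tested.

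With cold, 3 of 11 of these genes rose in Icam1+ preadipocytes, 2 of 11 in Dpp4+ fibroblasts and none fell, against 4.11% and 5.29% of all genes called in either direction. In Icam1+ preadipocytes Fabp4 rose by 1.41 at 3D cold and 1.38 at 14D cold and Cd36, a fatty acid transporter gene, by 1.62 and 2.05. In Dpp4+ fibroblasts Cpt1a (0.72 at both times) and Pdk4 (0.82 and 0.61), both of fatty acid oxidation, passed. In endothelial cells 0 of 10 passed.

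Across the 5 named classes in 6 libraries (30 sums, which share libraries and depth), the genes whose pattern was most like each receptor were endothelial: Rasip1 (r = 0.992), Adgrl4 and Etl4 for Kdr, Gpihbp1 (0.997), Cdh5 and Ptprb for Flt1, and Gm12002 (0.995), Myct1 and Podxl for Tie1. Tek, which is shared by endothelial and Dpp4+ cells, was most like Triobp (0.939), Sec14l1 (0.938) and Slc16a1 (0.921). For the ligands the nearest genes were Aebp1, Nfix and Bnc2 for Vegfa (0.973 to 0.974), Nxn, Lfng and Nrp1 for Vegfc (0.924 to 0.93), Oat, Phlda1 and Irs1 for Angpt1 (the last at 0.947), Mylk, Pdgfa and Amigo2 for Angpt2 (0.962 to 0.967) and Acot7, St6galnac2 and Epor for Angptl4 (0.947 to 0.962). Vegfb, with little difference between classes, had the weakest likeness, to Nup98 (0.714), Tnfsf9 (0.69) and Mettl7a1 (0.679). These coefficients over 9310 genes describe class patterns and were not tested.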

How the data were processed

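Droplet single-cell RNA-seq of 6 iWAT libraries (1 per age and temperature) was used. The deposited values are raw UMI counts per gene and cell, which the authors made with Cell Ranger 3.1.0 on mm10. Barcodes with over 200 genes, and within 3 median absolute deviations of their library's median, were kept. Counts scaled to 10000 per cell were clustered (15 components, 20 neighbours, Leiden resolution 0.5, leidenalg 0.10.2, Python 3.11.15) without the 10 genes and all listed genes. Clusters were named from at least 3 markers. Doublet scores were computed but no cell was removed in the main results.

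UMIs were summed per library and class. Age (temperature as a term, 2 residual degrees of freedom) and temperature (age as a term) were tested with edgeR 4.0.16 (quasi-likelihood F test, TMM factors, filterByExpr, Benjamini-Hochberg over all genes tested, threshold 0.05). Ligand shares used an exact permutation test. On simulated data with 200 genes changed by 1 on the log2 scale, the age test recovered 74.5% (SMC/pericytes) to 92% (Scg3+ Tfpi2+ cluster), and the temperature test 45.5% to 89.5%. False calls made up 1.79% to 6.74% of the calls. The simulation gave all genes of a class the same dispersion and set no effect of the other factor. Recovery of smaller changes was not measured. Alternatives were DESeq2 1.42.0, RLE factors, all genes kept whatever their counts, no second term, libraries left out, other resolutions, a fixed cell filter (1000 to 7000 genes, up to 10% mitochondrial UMIs) and thinning to 2000 UMIs. The Scg3+ Tfpi2+ cluster, single clusters or subclusters, and cells without endothelial UMIs were added after the data were seen. Named genes were the 10 members, up to 4 genes past the threshold per list, class and test, and the 3 genes most alike; 1 gene that the rule names is not reported here. Members and lists were chosen with earlier results of these data known. Intervals cover counting error only.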

Additional observations from a re-analysis of the deposited data

Results flagged for a closer look

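The results below are differences of the age effect between ASPC populations that passed the test of the difference itself, each on the log2 scale, from edgeR's quasi-likelihood test with the library as a block. For Icam1+ preadipocytes minus Dpp4+ fibroblasts they were −0.54 for Vegfb, 1.05 for Vegfc, 0.42 for Angpt1, 0.47 for Angptl4 and −0.52 for Tek. For Cd142+ fibroblasts minus Dpp4+ fibroblasts Angpt1 gave 0.40, and for Cd142+ fibroblasts minus Icam1+ preadipocytes Vegfb gave 0.81, Vegfc −1.21 and Tek 0.57. The Tek difference for Cd142+ minus Icam1+ was lost without young 3D cold or aged 3D cold (adjusted p = 0.189 and 0.2), and both Angpt1 differences were lost without single libraries, as given in the report.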

How the results depend on the processing

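The members' calls and the counts of genes past the threshold were recomputed under each alternative. For the members, 1598 recomputed values kept their direction and their side of the threshold, 112 lost the call and 61 gained it. Another 163 values were counted as moved, apart from these groups. Genes without a call changed sign as well. Over the alternatives, Angpt2 (age, Dpp4+ fibroblasts) ran from −0.77 to 1.30 and Vegfa (age, endothelial cells) from −0.41 to 0.29. Vegfb and Angpt1 (age, Dpp4+ fibroblasts), Vegfb and Flt1 (age, Cd142+ fibroblasts) and Kdr and Flt1 (age, Dpp4+ fibroblasts) passed in every alternative that gave a value. For Flt1 in Cd142+ fibroblasts these were 13 alternatives, against 16 for Vegfb there, and its aged TN level fell to that of young libraries without cells holding endothelial marker UMIs. Angptl4, temperature effect in Icam1+ preadipocytes, changed sign at 14D cold to −0.15 in the fit that leaves out young TN, to −0.10 leaving out young 14D cold (all 6 fits with 1 library left out gave −0.15 to 0.17) and to −0.080 after thinning to 2000 UMIs, and Kdr, age effect in SMC/pericytes, to −0.76 under the fixed cell filter; the cause was not tested. All calls for temperature were lost with no age term. The fixed cell filter gave no value for Icam1+ preadipocytes, whose cluster was then unnamed, nor, with the other resolutions, for the Scg3+ Tfpi2+ cluster. No paired analysis was possible because each group is 1 library and all libraries carry replicate number 1 only by order. DESeq2 gave no adjusted p for 16 member values, which are not counted. Depth limits SMC/pericytes most, with the fewest cells.

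The age effect in Dpp4+ fibroblasts covered 2263 genes as reported and 1357 with DESeq2, 753 with no temperature term, 1352 after thinning to 2000 UMIs and 1249 to 1775 with 1 library left out. The temperature effect in Dpp4+ fibroblasts covered 704 genes as reported and 2195 with no filter on low counts, 0 with no age term, 1098 at resolution 1.0, 1307 in cluster 0 alone and 246 to 1575 with 1 library left out. The age effect in Icam1+ preadipocytes covered 1299 genes as reported and 686 with DESeq2, 2059 with no filter on low counts, 280 with no temperature term, 572 after thinning to 2000 UMIs and 492 to 1320 with 1 library left out. The temperature effect in Icam1+ preadipocytes covered 514 genes as reported and 1752 with no filter on low counts, 0 with no age term, 276 after thinning to 2000 UMIs and 207 to 1289 with 1 library left out. The age effect in Cd142+ fibroblasts covered 1306 genes as reported and 482 with DESeq2, 474 with no temperature term, 708 after thinning to 2000 UMIs and 675 to 1242 with 1 library left out. The temperature effect in Cd142+ fibroblasts covered 273 genes as reported and 139 with DESeq2, 775 with no filter on low counts, 1 with no age term, 661 at resolution 0.3 and 134 to 508 with 1 library left out. The age effect in endothelial cells covered 270 genes as reported and 140 with DESeq2, 891 with no filter on low counts, 159 with no temperature term, 135 under the fixed cell filter, 139 after thinning to 2000 UMIs, 88 in capillary-like cells alone, 13 in arterial-like cells alone, 45 in the Col13a1 and Esm1 subcluster alone and 22 to 617 with 1 library left out. The temperature effect in endothelial cells covered 47 genes as reported and 498 with no filter on low counts, 9 with no age term, 100 without high doublet scores, 205 under the fixed cell filter, 123 at resolution 1.0, 139 after thinning to 2000 UMIs, 139 in capillary-like cells alone, 27 in arterial-like cells alone and 30 to 231 with 1 library left out. The age effect in SMC/pericytes covered 18 genes as reported and 227 with no filter on low counts, 0 with no temperature term, 57 without high doublet scores, 371 under the fixed cell filter, 11 after thinning to 2000 UMIs, 69 in pericyte-like cells alone and 24 to 88 with 1 library left out. The temperature effect in SMC/pericytes covered 10 genes as reported and 22 with DESeq2, 452 with no filter on low counts, 1 with no age term, 47 without high doublet scores, 521 under the fixed cell filter, 19 after thinning to 2000 UMIs, 92 in pericyte-like cells alone and 20 to 257 with 1 library left out. The age effect in Scg3+ Tfpi2+ cluster covered 1117 genes as reported and 553 with DESeq2, 1878 with no filter on low counts, 153 with no temperature term, 551 after thinning to 2000 UMIs and 375 to 1663 with 1 library left out. The temperature effect in Scg3+ Tfpi2+ cluster covered 323 genes as reported and 1539 with no filter on low counts, 0 with no age term and 89 to 1543 with 1 library left out. The difference of the age effect, Cd142+ fibroblasts minus Dpp4+ fibroblasts covered 474 genes as reported and 251 to 518 with 1 library left out. The difference of the age effect, Cd142+ fibroblasts minus Icam1+ preadipocytes covered 581 genes as reported and 238 to 692 with 1 library left out.

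The share of Vegfa UMIs in Dpp4+ fibroblasts, 47.4% as reported (mean of libraries), was 35.3% at resolution 1.0. The share of Vegfb UMIs in Dpp4+ fibroblasts, 41.2% as reported (mean of libraries), was 30.7% at resolution 1.0. The share of Vegfc UMIs in Icam1+ preadipocytes, 23.9% as reported (mean of libraries), was 31.7% at resolution 0.3 and 38.5% at resolution 1.0. The share of Angpt1 UMIs in Dpp4+ fibroblasts, 27% as reported (mean of libraries), was 15% at resolution 1.0. The share of Angpt2 UMIs in SMC/pericytes, 47.3% as reported (mean of libraries), was 66.3% under the fixed cell filter. The share of Angptl4 UMIs in Icam1+ preadipocytes, 38.9% as reported (mean of libraries), was 49.4% at resolution 0.3 and 55.5% at resolution 1.0.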
